A study of Mus musculus with 8 samples.

Results

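Cd96, Tigit, Cd226 and Crtam encode cell-surface receptors of the immunoglobulin superfamily, and Pvr and Cadm1 encode ligands that they bind. These 6 genes were examined among 19938 genes that the platform annotation names by 1 symbol, on Affymetrix whole-transcript arrays of mouse CD4 T cells. Naive cells sorted from wild-type mice (WT) and from mice with a T cell-specific conditional deletion of Bcl6 (KO) were measured on 4 arrays each. Both groups were stimulated for 24 hours through CD3 and CD28, with IL-6 and IL-21 added and TGF beta, IL-4 and interferon gamma blocked by antibodies, and the labels call the cells follicular helper T (Tfh) cells. The sources used here do not name the Cre driver, the strain, the age of the mice or whether each array came from a separate mouse, so p-values measure the spread between these arrays, which may be partly technical.

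The genes were chosen by name, each through the probe set that carries its symbol alone; where several existed, the one chosen by its mean signal, highest over all arrays, would have been used. Each of the 6 had 1, so no choice was needed and no second probe set could be compared. All 6 lay above the expression filter, the 40th percentile of the array, on all 8 arrays. The genes were put together after Cd96 and Crtam had been seen to be low in the KO-labelled arrays, so their values below describe these arrays and give no independent support.

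The receptors of this group share ligands of the nectin and nectin-like family and pull T and NK cells in different directions. Cd226 (DNAM-1) costimulates, whereas Tigit inhibits and Cd96 (Tactile) has mainly been described as inhibitory in mouse NK cells, and these 3 compete for Pvr (CD155) on other cells. Crtam binds Cadm1, a nectin-like adhesion molecule, appears on T cells after activation and marks CD4 T cells that can acquire cytotoxic features. Tigit is also known as a receptor of regulatory T cells and of Tfh cells.

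The deletion itself could not be read from the arrays. Bcl6, a transcriptional repressor that Tfh cells need, was at 8.61, 8.91, 8.78 and 8.79 in WT replicates 1 to 4 and at 9.08, 9.15, 9.18 and 9.19 in KO replicates 1 to 4 (log2 signal), higher and not lower where the label is KO (difference 0.38 ± 0.0645, SE, limma adjusted p = 0.0303, a call kept in 3 of 8 fits that left 1 array out). The sources used here do not place its single probe set against the deleted part of the gene, so directions are those of the arrays as labelled. KO replicate 1 stood apart: its median deviation from the group mean was 0.115 on the log2 scale, against 0.035 to 0.0725 on the other 7 arrays, and it correlated best with WT replicate 3.

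Markers of the sorted cells were high. The 6 CD4 T cell markers with a probe set that carried their symbol alone, Cd4 and CD3 chains among them, were above the filter on every array. They averaged 12.6 to 12.7 in WT and 12.7 in KO. Of 6 NK cell markers only Tyrobp reached the filter on enough arrays to be tested, and the NK list averaged 5.18 to 5.30 in WT and 5.17 to 5.36 in KO. Cd8b1 and Cd8a were tested, with a mean of 8.30 to 8.74 in WT and 8.35 to 8.61 in KO, and neither passed. Their levels were unlike: Cd8b1 was at 9.44 to 9.75 in WT and 9.35 to 9.83 in KO. Cd8a was at 7.05 to 7.73 in WT and 7.06 to 7.59 in KO. Cd79b for B cells and Cd68 for myeloid cells were the only testable markers of those types, erythroid cells had 0, and none passed. In bulk RNA, fewer cells of a type and less RNA per cell cannot be told apart.

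Cd96 and Tigit lie on chromosome 16, as Bcl6 does, and the promoter windows of both were available. They are shown because these receptor genes of the same chromosome were both lower on average in the KO-labelled arrays. Each run below gives the 250 bases before the transcript start, 5′ to 3′ on the minus strand of GRCm38.p6, from RefSeq, with every match to the NFAT core GGAAA and to the palindrome TTCNNNGAA, which STAT proteins and Bcl6 can bind, in capitals (either strand). Cd96 is at chr16:46120249-46120498 and Tigit at chr16:43664185-43664434.
Cd96: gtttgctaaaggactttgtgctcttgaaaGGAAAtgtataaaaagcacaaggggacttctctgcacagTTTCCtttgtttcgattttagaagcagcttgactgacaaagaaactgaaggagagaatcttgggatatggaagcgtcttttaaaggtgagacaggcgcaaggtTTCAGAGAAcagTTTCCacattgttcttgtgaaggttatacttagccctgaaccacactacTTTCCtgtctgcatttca
Tigit: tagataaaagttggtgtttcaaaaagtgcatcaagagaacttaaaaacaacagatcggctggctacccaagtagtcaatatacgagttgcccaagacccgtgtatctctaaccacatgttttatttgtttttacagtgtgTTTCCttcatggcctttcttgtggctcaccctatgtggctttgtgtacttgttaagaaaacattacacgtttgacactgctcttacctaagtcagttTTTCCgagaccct

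The Cd96 window held 1 match to TTCNNNGAA, which begins 79 bases before the start, and 4 to GGAAA. The Tigit window held 0 and 2. Among 32851 promoter windows of the same length, 7.02% held TTCNNNGAA and 55.6% held GGAAA. The tighter Bcl6 core TTCCTNGAA, present in 1.31% of windows, was in neither, nor was the AP-1 motif TGANTCA (6.75%). Each window held 1 match to the Runx motif TGTGGT (14.0%). The E-box CANNTG (66.2%) was matched once in the Tigit window, where it overlaps the Runx match, and not in that of Cd96. A match describes these letters only and was not tested as a binding site.

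Cd96 was lower where the label is KO. On the log2 scale it was at 9.22, 9.58, 9.57 and 9.83 in WT replicates 1 to 4 and 8.09, 8.63, 8.52 and 8.48 in KO replicates 1 to 4. The groups did not overlap: the lowest WT array, replicate 1, lay 0.59 above the highest KO array, replicate 2. The mean went from 9.55 ± 0.251 to 8.43 ± 0.235 (SD, n = 4), a difference of -1.12 ± 0.140 (SE; 95% interval -1.43 to -0.81), or 2.17-fold lower, with a limma adjusted p of 0.00728 over the 11926 genes tested. It was the most negative difference of all tested genes, and it stayed between -1.23 and -1.01, with adjusted p of 0.0025 to 0.0424, when any 1 array was left out. Of the 6 genes it was the only one past the threshold of 0.05 in this fit, against 1.32% of all tested genes 0.671% called lower and 0.646% called higher.

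Crtam was the other receptor gene without overlap between the groups. It was at 9.94, 10.26, 10.03 and 9.91 in the WT arrays and at 9.09, 9.69, 9.57 and 9.62 in the KO arrays, with KO replicate 1 lowest. The difference was -0.54 ± 0.129 (SE; 95% interval -0.83 to -0.25), from 10.04 ± 0.158 to 9.49 ± 0.273 (SD, n = 4), the 17th most negative of all tested genes, and it did not pass (limma adjusted p = 0.0763). Groups that do not overlap were found in 10.8% of tested genes and in 7.66% with KO below WT. Without KO replicate 1 the difference was smaller, -0.41, but passed (adjusted p = 0.0197), in a fit that called 6.6% of all tested genes. In the other 7 fits with 1 array left out the adjusted p was 0.099 to 0.232.

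Tigit, an inhibitory receptor, had a smaller difference in the same direction. It was at 10.66, 10.84, 10.86 and 10.90 in the WT arrays and at 10.39, 10.54, 10.66 and 10.54 in the KO arrays. The groups touched at 10.66, the value of both WT replicate 1 and KO replicate 3. The difference was -0.28 ± 0.0711 (SE; 95% interval -0.44 to -0.12; limma adjusted p = 0.0861), and the call did not pass in any fit that left 1 array out (adjusted p of 0.0556 to 0.248).

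Cd226, the costimulatory receptor that shares Pvr with Tigit and Cd96, differed in the opposite direction. It was at 8.52, 8.71, 8.65 and 8.90 in the WT arrays and at 8.73, 9.24, 9.06 and 9.10 in the KO arrays. KO replicate 1 lay within the WT range, and the other 3 KO arrays lay above all WT arrays. The difference was 0.34 ± 0.111 (SE; 95% interval 0.09 to 0.59) and did not pass (limma adjusted p = 0.166). Without KO replicate 1 it was 0.44 and passed (limma adjusted p = 0.0185), in a fit that called 6.6% of all tested genes. The other 7 fits gave adjusted p of 0.134 to 0.369.

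The ligand genes differed little. Pvr was at 10.67, 10.70, 10.56 and 10.69 in the WT arrays and at 10.56, 10.71, 10.71 and 10.76 in the KO arrays. KO replicate 1 equalled the lowest WT array, and the other KO arrays lay slightly above the highest WT array. Its difference was 0.03 ± 0.0570 (SE; 95% interval -0.10 to 0.16; limma adjusted p = 0.87). Cadm1, the ligand of Crtam, was just above the filter at 7.22, 7.20, 7.32 and 7.02 in the WT arrays and 7.39, 7.27, 7.11 and 7.17 in the KO arrays. Its difference was 0.05 ± 0.0783 (SE; 95% interval -0.13 to 0.22; limma adjusted p = 0.855). These intervals leave room for differences of up to 0.16 for Pvr and 0.22 for Cadm1, and the signs of both changed when single arrays were left out.

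**Figure D1:**
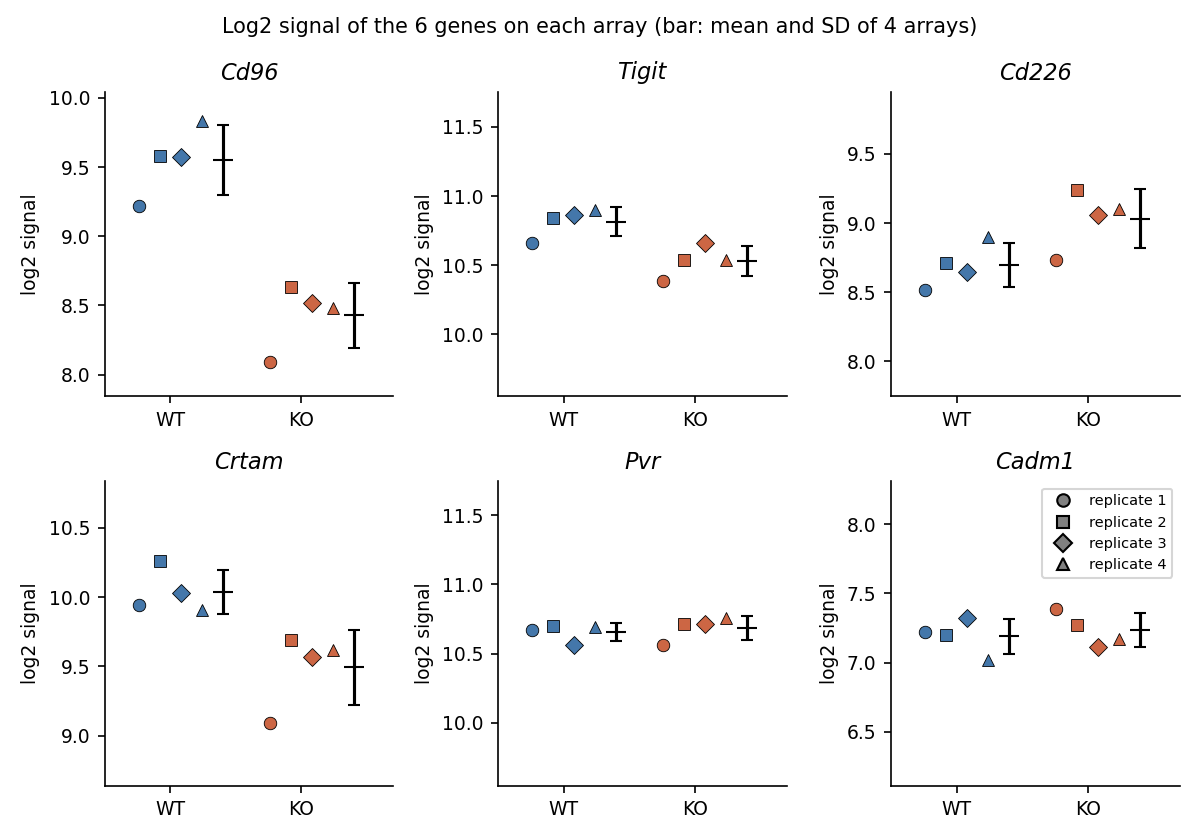
Log2 signal of Cd96, Tigit, Cd226, Crtam, Pvr and Cadm1 (y axis, each panel spanning the same range) on the 4 WT (blue) and 4 KO (orange) arrays, with symbols for replicate numbers and a bar for the mean and SD of each group. Cd96 (9.22 to 9.83 against 8.09 to 8.63) and Crtam (9.91 to 10.26 against 9.09 to 9.69) show no overlap, and the other 4 genes touch or overlap.

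**Figure D2:**
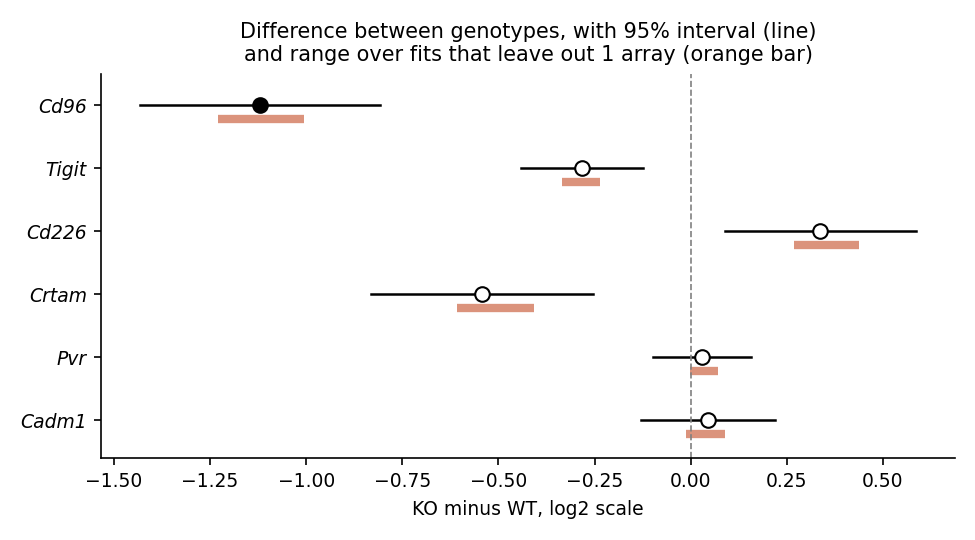
KO minus WT difference of each gene on the log2 scale (point), with its 95% interval from limma (black line) and the range over the 8 fits that leave out 1 array (orange bar); a filled point passed the adjusted threshold of 0.05. Cd96 lies at -1.12, Crtam at -0.54 and Tigit at -0.28, Cd226 at 0.34, and Pvr and Cadm1 lie near 0.

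Within each array, Cd96 shifted against Cd226. The log2 signal of Cd96 minus that of Cd226 was 0.70, 0.87, 0.92 and 0.93 in WT replicates 1 to 4 and -0.64, -0.61, -0.54 and -0.62 in KO replicates 1 to 4. The 2 probe sets need not have the same response, so the sign of such a value says nothing of which transcript was more abundant, while the shift between groups, -1.46, can be read. Values within a group lay close together although Cd96 alone ranged over 0.61 in WT and 0.54 in KO. Tigit minus Cd226 shifted by -0.62, Cd96 minus Tigit by -0.84 and Cd96 minus Crtam by -0.58. These shifts combine the single differences above and were not tested.

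Replicates of one genotype departed from their mean together in several of the receptors. KO replicate 1 was the lowest KO array for Cd96, Tigit, Cd226 and Crtam, at -0.34, -0.14, -0.30 and -0.40 from the group mean, and also for Pvr (-0.13), while it was the highest for Cadm1 (0.16). WT replicate 1 was the lowest WT array for Cd96 (-0.33), Tigit (-0.16) and Cd226 (-0.18), and WT replicate 4 was the highest for the same 3 genes (0.28, 0.09 and 0.21). Crtam did not follow this in the WT arrays, where replicate 4 was lowest (-0.13) and replicate 2 highest (0.23). KO replicate 1 also stood apart over all genes, and its part in these values was not tested beyond the fits without it.

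**Figure D3:**
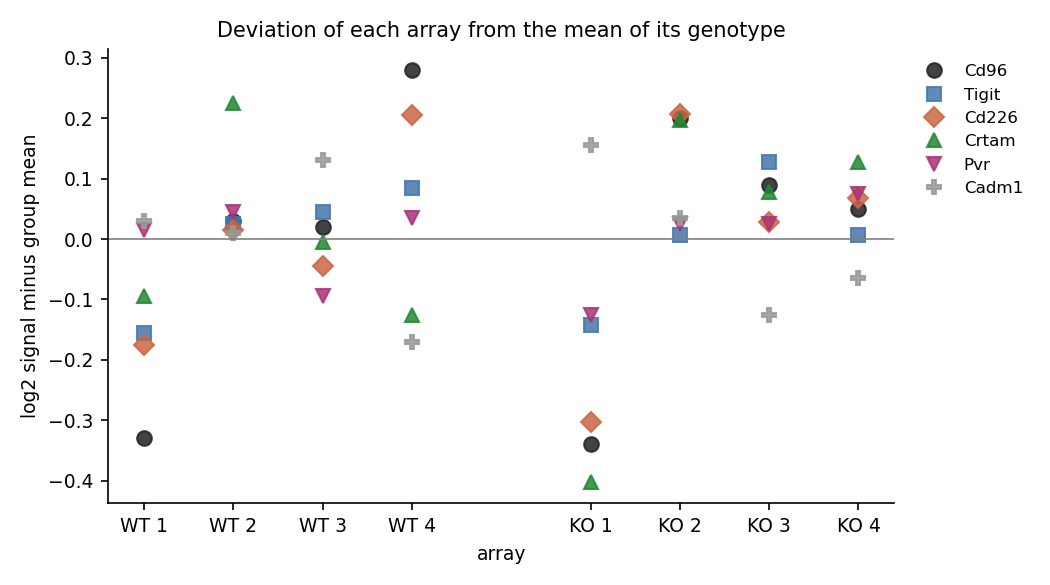
Log2 signal minus the mean of its genotype (y axis) for the 6 genes on each of the 8 arrays (x axis). On KO replicate 1 the 4 receptor genes lie between -0.14 and -0.40, and on WT replicate 4 Cd96, Tigit and Cd226 lie above the mean while Crtam lies below it.

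The genes most like Cd96 over the 8 arrays, by Pearson correlation of log2 signal, were Jup (r = 0.990), Wdr26 (0.989), Plcxd2 (0.988), Atp6v1e1 (0.979) and Hspbap1 (0.976). Jup encodes the junction protein plakoglobin and Atp6v1e1 a subunit of the vacuolar proton pump. Jup fell by 0.53, Plcxd2 by 0.46 and Hspbap1 by 0.30 (limma adjusted p = 0.00616, 0.00616 and 0.0489), and Wdr26 and Atp6v1e1 differed by -0.18 and -0.19 without passing (0.0758 and 0.0869). The call of Hspbap1 was lost in 7 of 8 fits that left 1 array out (adjusted p up to 0.156). For Crtam they were Commd7 (0.985), Bcor (0.984), Tspan32 (0.982), Gnb1l (0.976) and Mdn1 (0.974), none of which passed (limma adjusted p of 0.071 to 0.318). Bcor encodes a corepressor that binds Bcl6, and it differed by -0.22. The 8 points share the genotype difference and the low KO replicate 1, which lay apart from the other KO arrays in Commd7, Tspan32, Gnb1l and Mdn1.

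Chromosomal neighbours of Cd96 and Tigit were compared because both share chromosome 16 with the targeted gene. In the order of tested genes, 75 lay between Bcl6 and Tigit and 18 between Tigit and Cd96. Plcxd2, a gene of the phospholipase C X-domain family directly before Cd96 in this order, was at 8.93, 9.03, 9.03 and 9.04 in WT and at 8.43, 8.61, 8.58 and 8.57 in KO, and passed in all 8 fits that left 1 array out (limma adjusted p up to 0.0371). Trat1, the T cell receptor adaptor gene on the other side of Cd96, differed by 0.12 ± 0.150 (SE, limma adjusted p = 0.775), and by 0.05 to 0.27 when 1 array was left out, the highest without WT replicate 4. The genes on either side of Tigit, Zbtb20 (-0.07, 0.831) and Qtrt2 (-0.06, 0.809), did not pass either, and both changed sign without KO replicate 1 and under array weights, as Qtrt2 did without KO replicate 1 and WT replicate 3 together.

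Of the 38 tested genes within 10 places of Tigit or Cd96 and between them, 3 were higher, 2 lower and 33 did not pass. That is 13.2% called, against 1.32% of all tested genes and 4.66% of the 365 on chromosome 16, which include these 38. The higher genes were B4galt4, a galactosyltransferase gene (0.87, limma adjusted p = 4.57e-05), Arhgap31 (0.43, 0.00822), and Cd200, a membrane glycoprotein gene (0.34, 0.038). The lower ones were Plcxd2 and Nfkbiz, whose product modulates NF-kappa-B in the nucleus (-0.36, 0.0495). The call of Cd200 held in only 1 of 8 fits that left 1 array out. Those of B4galt4, Arhgap31 and Nfkbiz were not followed in such fits. The called genes lay on both sides of 0, and all but Plcxd2, which the naming rule gave, and Cd200 were named after their values were seen. Of the 20 tested genes within 10 places of Bcl6 itself, 1 was higher and 0 lower, where 1.32% of all tested genes were called. The higher one was Lpp, directly after Bcl6 in this order (1.055, limma adjusted p = 1.53e-05), and it too was named after its values were seen. Whether flanking sequence of the targeted allele extends to the region of Tigit and Cd96 was not tested.

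**Figure D4:**
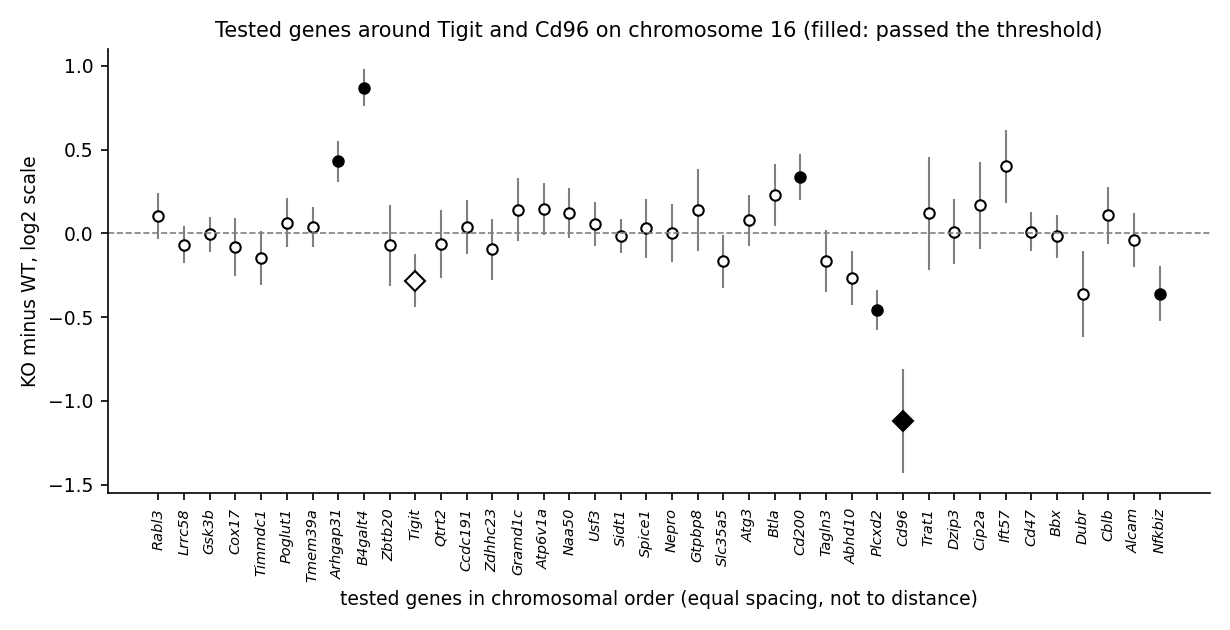
KO minus WT difference on the log2 scale with its 95% interval (y axis) for 40 tested genes in chromosomal order around Tigit and Cd96 (diamonds; x axis equally spaced), filled where limma's adjusted p was under 0.05. B4galt4 (0.87) and Arhgap31 (0.43) lie above 0 just before Tigit, and Plcxd2 (-0.46) and Cd96 (-1.12) lie below 0 side by side.

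Other nectin-family genes mostly could not be tested. Of 9 listed genes 7 had a probe set that carried their symbol alone, and 3 could be tested. Limma called 0 of these, and 0 had an unadjusted p under 0.05. Nectin1, an adhesion molecule that Cd96 can bind in mice, differed by 0.19 ± 0.134 (SE; WT 9.33, 8.79, 8.66 and 8.69, KO 9.16, 8.99, 9.12 and 8.95; limma adjusted p = 0.559). Its difference was 0.34 without WT replicate 1 (0.0747), 0.12 without WT replicate 3 and 0.08 without WT replicate 3 and KO replicate 1. Afdn, the nectin-anchoring protein afadin, differed by 0.11 and Cadm4 by 0.07, the latter at -0.02 without KO replicate 1. Nectin2, a further ligand of Cd226, was under the filter.

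Genes of the signalling steps that these receptors use were mostly lower on average, but none passed. Of 18 tested genes 15 were negative, with a median of -0.10 against -0.02 over all tested genes, of which 57.9% were negative. Limma called 0 of the 18, while 7 (38.9%) had an unadjusted p under 0.05, against 16.6% of all tested genes. Plcg1, the phospholipase C gamma that Cd226 and the T cell receptor both engage, had the smallest p, at 10.40, 10.45, 10.45 and 10.50 in WT and 10.06, 10.18, 10.28 and 10.21 in KO (difference -0.27 ± 0.0548, SE, limma adjusted p = 0.05004). It passed without KO replicate 1 (0.0205), in a fit that called 6.6% of all tested genes. Fyn, a kinase that phosphorylates Cd226, differed by -0.22 (0.0793) and Itgal, a chain of the integrin LFA-1 that associates with Cd226, by -0.20 (0.0841). Dlg1, a polarity scaffold, had the most positive difference, 0.10 (0.398).

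Among other immunoglobulin-family receptors of T cells, Vsir fell and Cd200 rose. Of 17 tested genes 1 was higher, 1 lower and 15 did not pass, where 1.32% of all tested genes were called, and the median was -0.05 against -0.02 over all. Vsir, which encodes the checkpoint receptor VISTA, was at 12.03, 12.17, 12.13 and 12.04 in WT and 11.87, 11.75, 11.57 and 11.79 in KO (difference -0.35 ± 0.0681, SE, limma adjusted p = 0.0467). Both calls were held only without KO replicate 1, where Btla and Lag3 passed too and 6.6% of all tested genes were called, and lost without each of the other 7 arrays, with adjusted p of up to 0.165 for Vsir and 0.143 for Cd200. The inhibitory receptor genes Lag3 and Pdcd1 differed by -0.28 and -0.22 with no overlap between the groups (limma adjusted p = 0.0626 and 0.0931). Groups did not overlap in 4 of the 17 genes, in 10.8% of all tested genes, and in 7.66% of all with KO below WT. Btla, which lies 5 places before Cd96, differed by 0.23 (0.206).

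Cytotoxic and NK genes, with which Crtam is often described, contained large differences that did not pass. Of 16 tested genes limma called 0, and 8 had an unadjusted p under 0.05, against 16.6% of all tested genes. The median was -0.09, against -0.02 over all. Xcl1, a chemokine gene of cytotoxic cells, had the largest difference, -0.99 ± 0.249 (SE, limma adjusted p = 0.0861), with 8.07, 8.85, 8.93 and 7.68 in WT and 7.49, 7.48, 7.15 and 7.46 in KO. Ctsw, a cathepsin gene of cytotoxic cells, was at 9.18, 9.53, 9.49 and 8.95 in WT and 8.64, 8.76, 8.80 and 8.87 in KO (difference -0.52, 0.0696). Nkg7, a cytotoxic granule gene, differed by -0.89 (0.0947) and Prf1, which encodes perforin, by -0.44 (0.102), while Ccl3, a chemokine gene, differed by 0.40 (0.332), or by 0.21 without WT replicate 4. WT replicate 4, the WT array lowest in Crtam and highest in Cd96, was alone the lowest WT array in 7 of the 16 genes, Xcl1 and Nkg7 among them, and the highest in 1. WT replicate 1 was likewise the lowest in 7, Eomes and Gzmb among them, and the highest in 1. Such counts were not made over all tested genes, so they have no share to stand beside. Without WT replicate 4, 2 genes of the list were lower, in a fit that called 0.893% of all tested genes. Without KO replicate 1 the 2 lower ones were Cst7 and Runx3, in a fit that called 6.6%.

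Regulatory T cell genes were examined because Tigit and Cd96 are both found on such cells. Of 15 tested genes 1, Gpr83, fell (by 0.63, limma adjusted p = 0.00333), and 14 did not pass, where 0.671% of all tested genes were called lower. The median was -0.02, as over all tested genes, with 7 differences positive and 8 negative. An unadjusted limma p under 0.05 was found for 8 of the 15 (53.3%), against 16.6% of all tested genes. The groups did not overlap in 6 of the 15, against 10.8% of all tested genes. Foxp3, the factor that defines these cells, was at 8.21, 8.43, 8.70 and 7.84 in WT and 7.76, 7.51, 7.62 and 7.58 in KO (difference -0.68, 0.0648). Lrrc32, a receptor gene that presents latent TGF beta on regulatory T cells, was at 8.45, 8.37, 8.87 and 7.72 in WT and 7.42 to 7.46 in KO (difference -0.92 ± 0.190, SE, 0.0514), and passed without KO replicate 1 (0.0307) or WT replicate 4 (0.00573). Nrp1, a surface marker of thymus-derived regulatory T cells, differed by 0.43 (0.202). Without KO replicate 1, where 6.6% of all tested genes were called, Foxp3 was also called lower and Nrp1 was called higher (0.56, 0.0283). WT replicate 4, the highest WT array in Cd96 and Tigit, was alone the lowest in 4 of the 15 genes, Foxp3 and Lrrc32 among them, and the highest in 5, Nrp1 and Ctla4 among them. These counts too were not made over all tested genes. The part of regulatory T cells in the differences of Cd96 and Tigit was not tested.

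**Figure D5:**
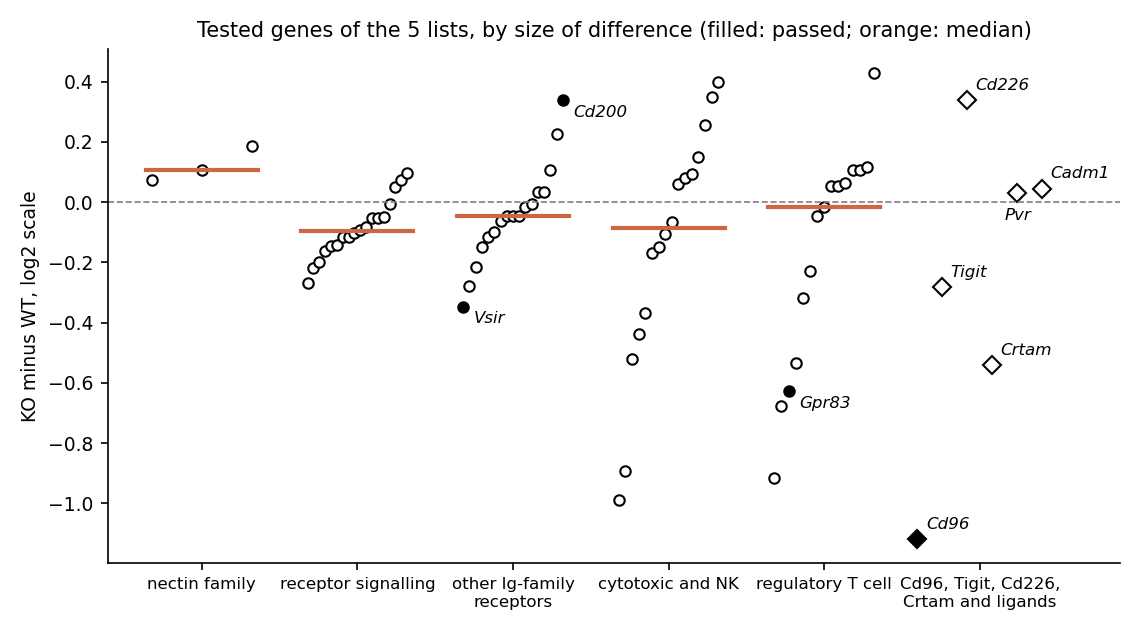
KO minus WT difference on the log2 scale (y axis) for the tested genes of the 5 lists, ordered by size within each list, with the list median (orange line), beside the 6 receptor and ligand genes (diamonds). Filled points passed limma's adjusted threshold of 0.05: Vsir, Cd200, Gpr83 and Cd96.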

How the data were processed

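The authors deposited log2 values, 1 per probe set and array, rounded to 2 decimals; RMA and Partek are named in the submitters' processing notes, and their versions and order are not given in the sources used here. The arrays have nearly equal medians (7.35 to 7.42), so values are relative to the rest of an array and carry no amount of RNA per cell. The number of arrays limits the precision.

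Of 35556 probe sets, 21789 had 1 gene symbol, 1621 several, and 12146 were not listed and are unnamed; those with several named no gene. Of the former, 21698 matched the RefSeq gene table (GRCm38.p6) by Entrez identifier. The probe set with the highest mean stood for a gene. Genes above the 40th percentile of the array (over probe sets with 1 symbol) on at least 4 arrays were tested, 11926 in all.

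Differences (KO minus WT) came from lmFit and eBayes of limma 3.58.1 (R 4.3.3) without a block; two-sided p-values were adjusted by Benjamini-Hochberg across the tested genes, and 0.05 was the threshold; intervals are limma's, unadjusted. The fit was tested on simulated data with errors independent between genes and arrays. Those data held no array that stood apart as KO replicate 1 did. The genes, lists and tests were chosen with earlier results of these data known. Named were, per list, the genes past the threshold or else that with the smallest p, and the largest difference in each direction; the 5 genes most correlated with Cd96 and with Crtam (predicted genes, clones and receptor segments left out); and the genes beside Cd96 and Tigit. Fyn, Itgal, Lag3, Pdcd1, Btla, Nkg7, Prf1, Cst7, Runx3, Eomes, Gzmb, Ctla4, Foxp3, Afdn and Nectin2 were added after their values were seen. Promoter windows on chromosome 18, which carries Cd226, were left out of the match to genes, so Cd226 could not have one. Of the 6 genes, 2 had a window. Alternatives are listed in the closing section.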

Additional observations from a re-analysis of the deposited data

Results flagged for a closer look

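In 9 of 64 groups of 4 values, for the genes named by rule, 1 array lay far from the other 3. None of the 6 receptor and ligand genes was among them. Chance flags about 1 in 20 independent groups, a rate that does not apply here because the groups are not independent. Commd7, Tspan32, Gnb1l and Mdn1 were chosen for their correlation with Crtam, which was itself lowest among KO arrays in replicate 1. In KO replicate 1, Cd200 was low at 12.12 (the others 12.31), as were Commd7 at 9.18 (the others 9.32 to 9.33), Tspan32 at 9.90 (10.02 to 10.03), Gnb1l at 9.29 (9.48 to 9.50) and Mdn1 at 10.80 (10.93 to 10.95). In WT replicate 1, Dlg1 was low at 10.61 (10.69 to 10.70) and Plcxd2 at 8.93 (9.03 to 9.04). Xcl1 was low in KO replicate 3 at 7.15 (7.46 to 7.49), and Trat1 was high in WT replicate 4 at 8.93 (8.28 to 8.36).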

How the results depend on the processing

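The alternatives were a further quantile normalization, median centring, array weights, no filter or one at the 50th percentile, the mean of a gene's probe sets, a robust prior with an intensity trend, a replicate block, each array left out, KO replicate 1 and WT replicate 3 left out together, thresholds of 0.01 and 0.1 and, chosen after seeing the data, a 40th percentile over all probe sets. Cd96 kept its direction and its call in all of its 18 alternative fits. Tigit and Crtam passed after another quantile normalization (-0.27 and -0.52), with the trend and robust prior (-0.28 and -0.54) and with array weights (-0.23 and -0.53). Cd226 passed with array weights (0.42), and without KO replicate 1 and WT replicate 3 together Cd226 (0.42) and Crtam (-0.41) passed. With array weights Cadm1 was at -0.023, Zbtb20 at 0.0097 and Qtrt2 at 0.011, and without KO replicate 1 and WT replicate 3 Qtrt2 was at 0.033; their causes were not tested. Over fits that left 1 array out the differences ran from -1.23 to -1.01 (Cd96), -0.33 to -0.24 (Tigit), 0.27 to 0.44 (Cd226), -0.61 to -0.41 (Crtam), -0.0017 to 0.072 (Pvr), -0.012 to 0.088 (Cadm1), -0.024 to 0.14 (Cadm4), -0.14 to 0.032 (Zbtb20), -0.11 to 0.039 (Qtrt2), 0.12 to 0.34 (Nectin1), 0.21 to 0.57 (Ccl3) and 0.05 to 0.27 (Trat1).

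The count of 157 genes past the threshold became 322 after another quantile normalization, 78 with median centring (48 higher and 30 lower, against 77 and 80), 58 without a filter, 354 with the trend and robust prior, 1980 with array weights, 446 without KO replicate 1 and WT replicate 3, 27 and 468 at thresholds of 0.01 and 0.1, and 28 to 783 when 1 array was left out, the highest without KO replicate 1. The replicate block gave 36 genes. Same-numbered deviations over all tested genes correlated at 0.01, 0.14, -0.17 and 0.31, which cannot settle whether same-numbered arrays were paired. Replicate 1 was the lowest array of both groups in Cd96, Tigit and Cd226. Under the block Cd96 differed by -1.12 (limma adjusted p = 0.00226), with an SE of 0.0715 against 0.140 in the main fit. The SEs of Tigit, Cd226 and Crtam were also smaller, at 0.0489, 0.0691 and 0.0897, and no other gene of the 6 passed. Of 26 other named genes in 467 alternative values, 387 kept their direction and side of the threshold, 40 lost the call, 34 gained it and 6 changed sign.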
